A study of Mus musculus with 9 samples.

Results

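The subunits of the oxidative phosphorylation machinery were examined in tumor cells isolated from 67NR, 4T07 and 4T1 mammary tumors. Members were chosen by gene symbol alone, as every probe of the array whose annotated symbol was that of a nuclear-encoded subunit of complexes I to V (symbols that start with Ndufa, Ndufb, Ndufc, Ndufs, Ndufv, Uqcr, Cox4 to Cox8 or Atp5, and the Sdh genes). The rule found 104 probes of 73 genes among 19281 probes that carry the name of 1 gene, which cover 12148 genes. Of these, 97 probes passed the filter on low values (3 or more of the 9 arrays with a detection p below 0.05), and 70 of the 73 genes could be tested among 10021 genes in all. Cox4i2, Cox6a2 and Cox6b2 did not pass it. By complex, 34 of the tested genes belonged to complex I, 3 to complex II, 6 to complex III, 11 to complex IV and 16 to complex V. Ndufa4, formerly counted with complex I, was placed in complex IV. The symbols also matched genes that are not subunits, namely Ndufs5-ps, annotated as a pseudogene of a complex I subunit, and Cox7a2l, an assembly factor of respiratory supercomplexes. Both were kept, the former with complex I and the latter with complex IV.

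67NR, 4T07 and 4T1 are isogenic mouse triple-negative breast cancer lines that came from the same primary tumor. As background, they are known to differ in spread, from none in 67NR over small lung deposits in 4T07 to widespread disease in 4T1. For every sample, 500000 untreated cells of a line were placed in the fat pad of mammary gland 4 of a female Balb/c mouse that carries a ubiquitous GFP transgene (Ub-GFP), and the tumor grew for 2 to 4 weeks to a mean diameter of 10 mm. Cells negative for GFP and CD45 were then sorted ex vivo, a step meant to remove host cells and leukocytes. Each line is represented by 3 arrays, and since the labels do not say whether the 3 replicates came from separate mice, the p-values measure the spread between these samples only. Each line had its own history of selection, so that differences between lines cannot be told apart from differences between 3 clonal histories.

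Oxidative phosphorylation couples the oxidation of nutrients to the synthesis of ATP in the inner mitochondrial membrane. Complexes I and II pass electrons from NADH and succinate to ubiquinone, complex III passes them on to cytochrome c, and complex IV reduces oxygen. The proton gradient that complexes I, III and IV build drives complex V, the ATP synthase. Most subunits are encoded in the nucleus, while mitochondrial DNA encodes a few core subunits of every complex except complex II, so that the assembly of 4 of the complexes draws on 2 genomes.

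Of 45281 probes, 16025 to 16990 were detected per array in 67NR, 16604 to 17282 in 4T07 and 17091 to 17566 in 4T1, so that the 67NR and 4T1 arrays did not overlap. The part of this difference in the results was not tested. Replicates of a line correlated at 0.983 to 0.992 over the genes tested. The members varied less within a line than genes did in general, with a median SD of 0.146 on the log2 scale against 0.208 over all genes. Some members had 1 array apart from the rest of its line. On 4T07 replicate 3, 7 of 70 members (Atp5a1, Cox6c, Ndufb2, Ndufb4, Ndufb5, Ndufb9 and Sdhd) lay over 0.5 above both other 4T07 arrays and 0 lay as far below, while 5.73% of all genes lay above and 4.12% below. On 67NR replicate 1, 5 members (Atp5a1, Atp5e, Cox7a2, Ndufb11 and Ndufb9) lay over 0.5 below both other 67NR arrays and 0 as far above, while 4.39% of all genes lay below and 3.27% above. The number of arrays, the dim members and the unstated origin of the replicates all limit the precision.

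Markers of the sorted population also differed between the lines. The summed intensity of 10 epithelial markers was 302 to 311 in 67NR, 5007 to 8071 in 4T07 and 36153 to 44638 in 4T1. In 67NR, 6 of the 10, Krt18 and Krt14 among them, were detected on no array. The sum of 15 fibroblast and pericyte markers was 4537 to 6334 in 67NR, 3314 to 4753 in 4T07 and 1859 to 1987 in 4T1, with Postn and Fap detected on no array of any line. By contrast, Pdgfra, Dcn, S100a4 and Acta2 were detected on every array, and Des, Lum and Pdgfrb on every 67NR array. Not every marker of this list followed its sum. Of the 9 that could be tested, 1 was called higher and 6 lower in 4T1 than in 67NR, and 1 and 4 in 4T07. In 67NR, 4T07 and 4T1, the means were 5.90, 6.63 and 7.16 for Acta2, and 9.28, 10.40 and 8.22 for Dcn. The sum of 9 leukocyte markers was 2048 to 2854, 984 to 1131 and 1425 to 1618, respectively, and Adgre1 was detected on no array of any line. Lyz2, Ly6c1, Laptm5, Coro1a and Cd14, however, were detected on every array. Not every leukocyte marker was lowest in 4T07. Cd3e was detected on 2 of the 4T07 arrays, where its mean was 6.06, and on no array of 67NR or 4T1. In 67NR, 4T07 and 4T1, the means were 8.92, 9.07 and 8.07 for Cd14, 8.82, 6.26 and 6.34 for Lyz2, and 9.93, 7.23 and 9.85 for Ly6c1. The adipocyte markers Adipoq, Fabp4 and Cidea were detected on no array of any line. Plin4 was detected on 3 and Lep on 2 of the 67NR arrays, each on 2 of the 4T07 arrays, and neither in 4T1. The erythroid gene Hba-a1 was detected in 67NR alone, at 197 to 347. These sums move with the comparisons below, and their part in the results was not tested. In such sorted samples, fewer cells of a type and less RNA per cell cannot be told apart.

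To compare the lines, normalized log2 intensities were fitted with limma over all genes, and a member was called where its p, adjusted by Benjamini-Hochberg over the 10021 genes, was under 0.05. In 4T1 against 67NR, 6 of 70 members were higher and 17 lower, where 23.2% of all genes were higher and 26.6% lower. The median log2 fold change of the members was -0.14, and that of all genes -0.05. In 4T07 against 67NR, 4 members were higher and 15 lower, against a background of 21.9% and 23.4%, and their median was again -0.14. In 4T1 against 4T07, 11 members were higher and 7 lower, against 14% and 15.8%, and their median was 0.05. Thus, the shares of members lower than in 67NR (24.3% in 4T1 and 21.4% in 4T07) lay near the background, while the shares of members higher than in 67NR (8.57% and 5.71%) lay below it. The comparisons share arrays, so they are not independent of each other. In all, 36 members were called in at least 1 comparison and 34 in none, and the matching share of all genes was not counted. In the comparisons taken singly, in the order above, 32.9%, 27.1% and 25.7% of the members were called. The shares of all genes were 49.8%, 45.3% and 29.7%.

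The sizes of the differences were modest. The members spanned log2 fold changes of -1.11 to 0.86 in 4T1 against 67NR, -0.99 to 1.30 in 4T07 against 67NR and -1.29 to 1.08 in 4T1 against 4T07. In 4T1 against 67NR, 2 of 70 members (2.86%) differed by more than 1 on the log2 scale in either direction, whereas 22.0% of all genes did. The median absolute log2 fold change was 0.30 for the members and 0.44 for all genes. Accordingly, in the map of the members by array most rows were pale, with a few strongly colored rows in each complex.

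**Figure D1:**
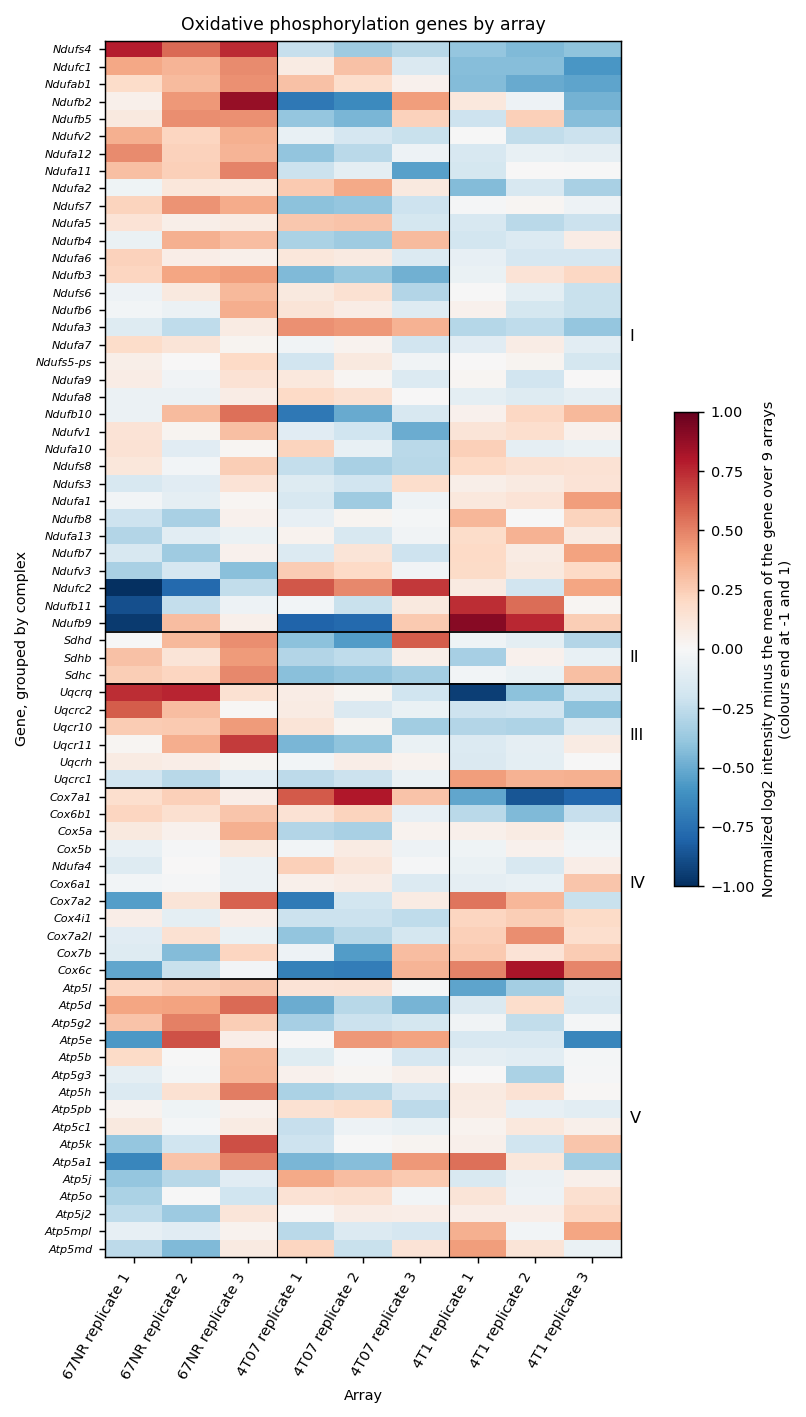
Normalized log2 intensity of the 70 tested members (rows, grouped by complex and ordered by the log2 fold change of 4T1 against 67NR) on the 9 arrays (columns), each row centred on its own mean. Rows such as Ndufs4 were high on the 3 67NR arrays and low on the other 6, whereas Cox7a1 was lowest on the 3 4T1 arrays and Cox6c highest there.

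The members were also counted by complex, and the complexes were not tested against each other. In 4T1 against 67NR, the median log2 fold change was -0.18 for complex I, -0.40 for complex II and -0.48 for complex III, 0.07 for complex IV and -0.02 for complex V. Specifically, 4 members of complex I were called higher (11.8%) and 8 lower (23.5%), against the 23.2% and 26.6% of all genes given above, 0 and 1 of complex II, 1 and 3 of complex III, 1 and 2 of complex IV, and 0 and 3 of complex V. The median of complex I was -0.10 without 67NR replicate 3. That of complex V ran from -0.21 without 67NR replicate 1 and -0.10 without 4T1 replicate 1 to 0.05 without 67NR replicate 3, and was 0.02 with median centring. That of complex IV was -0.03 without 67NR replicate 1, -0.01 without 4T1 replicate 3 and 0.01 without 4T1 replicate 1. In 4T07 against 67NR, the medians were -0.14, -0.45, -0.37, -0.09 and -0.11 for complexes I to V, with 3 higher and 9 lower in complex I, 0 and 2 in complex II, 0 and 2 in complex III, 0 of 11 either way in complex IV, and 1 and 2 in complex V. For complex I these were 8.82% higher and 26.5% lower, where 21.9% and 23.4% of all genes were. All 5 medians lay below 0. Without 67NR replicate 3 those of complexes IV and V turned to 0.02 and 0.03, and without 4T07 replicate 3 those of complexes II and IV were -0.72 and -0.19. At an unadjusted p under 0.05, limma put 1 of the 11 complex IV members lower and 1 higher in 4T07, the methods' t-test put 1 lower and 0 higher after adjustment, and without 4T07 replicate 3, 1 was called higher and 1 lower. In 4T1 against 4T07, 14% of all genes were called higher and 15.8% lower. Of complex I, 5 members were called higher (14.7%) and 4 lower (11.8%). The median of complex IV was 0.23, with 3 of 11 members higher and 2 lower. This median was 0.09 without 4T07 replicate 2 and 0.34 without 4T07 replicate 3, 0.11 with no background correction and 0.10 with the authors' deposited log2 values.

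**Figure D2:**
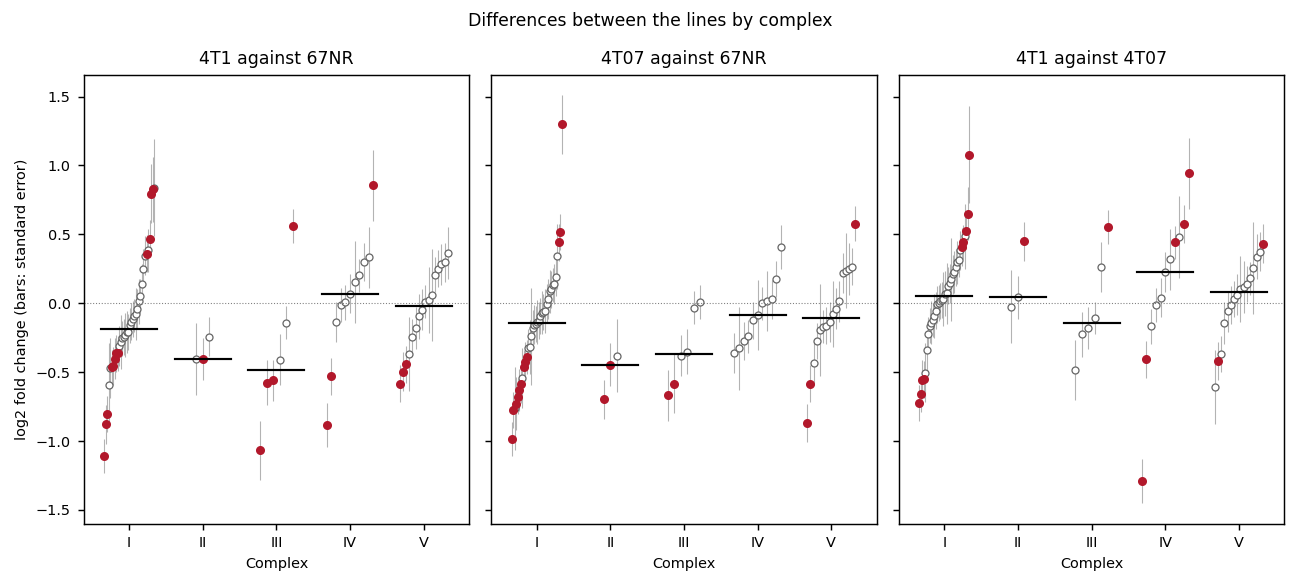
log2 fold change of each member (points, with bars of 1 standard error) in the 3 comparisons, by complex. Filled points passed an adjusted p of 0.05 in limma, black lines are the medians of a complex, and in 4T07 against 67NR no complex IV point is filled.

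Complex I has a peripheral arm that carries the NADH oxidation site (N module) and the ubiquinone site (Q module), and a membrane arm that pumps protons. The member that differed most from 67NR in 4T1 was Ndufs4, an accessory subunit of the N module whose loss causes a Leigh-like encephalopathy in mice. Its log2 intensity was 13.02, 12.81 and 12.99 on the 67NR arrays, 12.01, 11.88 and 11.96 on the 4T07 arrays, and 11.85, 11.80 and 11.83 on the 4T1 arrays. Hence every 67NR array lay above every array of the other lines, by far more than the spread of the replicates. Ndufs4 was 2.16-fold lower in 4T1 than in 67NR (log2 fold change -1.11 ± 0.12 (SE), limma adjusted p = 1.51e-05) and 1.98-fold lower in 4T07 (-0.99 ± 0.12, adjusted p = 4.41e-05). All 4 kept probes of the gene passed as lower in each of these comparisons, with log2 fold changes of -1.11 to -0.75 in 4T1 and -1.15 to -0.98 in 4T07. 4T1 and 4T07 differed by -0.12 (adjusted p = 0.495).

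Ndufs4 lies on chromosome 13. The stretch from 250 bases before to 50 bases after its annotated start (RefSeq, GRCm38.p6) is shown with that of Ndufc1, another complex I gene that was lower in 4T1, and with those of Ndufc2 and Uqcrc1, which were higher in 4T1. Capitals mark the letters of 3 motifs searched for on both strands, NRF1 (GCGCA, any base, then GCGC), ETS (CCGGAAG) and YY1 (AAGATGGC), which are named after factors known to act on respiratory chain genes.
Ndufs4 (chr13:114388045-114388344, minus strand): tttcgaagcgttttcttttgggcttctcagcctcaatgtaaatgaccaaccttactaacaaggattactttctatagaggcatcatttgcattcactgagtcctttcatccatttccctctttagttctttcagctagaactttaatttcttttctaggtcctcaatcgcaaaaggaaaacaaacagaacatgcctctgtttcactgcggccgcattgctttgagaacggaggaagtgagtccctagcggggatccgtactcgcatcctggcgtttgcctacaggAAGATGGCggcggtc
Ndufc1 (chr3:51408906-51409205, minus strand): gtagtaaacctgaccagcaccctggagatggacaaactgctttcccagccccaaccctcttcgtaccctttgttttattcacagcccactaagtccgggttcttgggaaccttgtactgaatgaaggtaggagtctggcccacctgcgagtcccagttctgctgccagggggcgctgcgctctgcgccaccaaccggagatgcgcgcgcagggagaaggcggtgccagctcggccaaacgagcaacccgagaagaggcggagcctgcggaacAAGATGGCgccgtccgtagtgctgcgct
Ndufc2 (chr7:97399753-97400052, plus strand): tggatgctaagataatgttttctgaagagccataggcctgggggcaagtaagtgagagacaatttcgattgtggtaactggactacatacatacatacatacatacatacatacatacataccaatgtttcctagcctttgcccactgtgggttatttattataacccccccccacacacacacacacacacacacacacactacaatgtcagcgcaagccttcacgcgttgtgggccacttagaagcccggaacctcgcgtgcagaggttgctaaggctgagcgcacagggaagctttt
Uqcrc1 (chr9:108936398-108936697, plus strand): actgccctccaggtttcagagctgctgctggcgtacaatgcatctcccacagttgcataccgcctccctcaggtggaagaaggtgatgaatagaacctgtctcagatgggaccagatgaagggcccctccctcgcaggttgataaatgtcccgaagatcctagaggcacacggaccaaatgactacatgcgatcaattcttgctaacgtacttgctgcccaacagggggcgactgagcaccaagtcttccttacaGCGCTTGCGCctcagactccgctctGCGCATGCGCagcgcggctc
The YY1 letters began 36 bases into the transcript in Ndufs4 and 23 bases into it in Ndufc1, and Uqcrc1 held the NRF1 letters at positions 6 and 31. Ndufc2 held none of the 3. Among other members lower in 4T1, Ndufs7 held the YY1 letters, Ndufa11 and Atp5g2 the NRF1 letters, and Atp5l, Cox6b1 and Sdhb the ETS letters. Atp5d, Cox7a1, Ndufa12, Ndufab1, Ndufv2 and Uqcr10, also lower there, held none of the 3. Ndufv3, which was higher there, also held none. Whether a motif goes with a direction was not tested. Promoters of this length were found for 61 of the 73 member genes (66 promoters). The NRF1 letters stood in 24.2% of them and in 4.60% of all 32851 promoters, the ETS letters in 24.2% against 8.86%, and the YY1 letters in 15.2% against 2.75%. The hypoxia response core ACGTG stood in 22.7% against 19.6%, and the estrogen-related receptor element TCAAGGTCA in 3.03% against 0.423%. No overlap between motifs was removed, and a match describes the letters of the window only.

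Among the other subunits of the N module, Ndufv2, one of its core subunits that binds an iron-sulfur cluster, was at 12.72, 12.58 and 12.71 in 67NR, 12.28, 12.19 and 12.13 in 4T07, and 12.35, 12.11 and 12.15 in 4T1. The 67NR arrays again lay above all others, and Ndufv2 was 1.38-fold lower in 4T1 (-0.46, adjusted p = 0.0103) and 1.38-fold lower in 4T07 (-0.47, adjusted p = 0.0111). Ndufv1, the core subunit that holds the flavin, was 1.34-fold lower in 4T07 (-0.42, adjusted p = 0.0302), though not without 67NR replicate 1 or 3 or 4T07 replicate 3, with a value of -0.04 in 4T1. By contrast, Ndufv3, a small accessory subunit of the same module, was higher in each line, at 11.67, 11.84 and 11.58 in 67NR against 12.25, 12.20 and 11.97 in 4T07 and 12.19, 12.10 and 12.20 in 4T1. The groups of 4T07 and 4T1 did not overlap with 67NR, and the differences were 0.44 (adjusted p = 0.0183), lost without 67NR replicate 3 or 4T07 replicate 1 or 2, and 0.47 (adjusted p = 0.0127). Ndufa12, an accessory subunit next to the N module, was 1.50-fold lower in 4T07 (-0.59, adjusted p = 0.00424) and 1.37-fold lower in 4T1 (-0.46, adjusted p = 0.0154), the latter lost without 67NR replicate 1. Ndufa2, an accessory subunit with a thioredoxin-like fold, was 1.47-fold lower in 4T1 than in 4T07 (-0.55, adjusted p = 0.00976) and was at 0.19 in 4T07 against 67NR (adjusted p = 0.285). Its call against 67NR (-0.36 in 4T1, adjusted p = 0.0422) was lost without 67NR replicate 2 or 3, 4T07 replicate 1, or 4T1 replicate 1 or 3.

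In the Q module, the core subunits Ndufs7 and Ndufs8, which carry iron-sulfur clusters on the way to ubiquinone, were lower in 4T07. Ndufs7 was at 12.03, 12.26 and 12.18 in 67NR, 11.40, 11.42 and 11.61 in 4T07, and 11.80, 11.83 and 11.76 in 4T1. The 3 lines did not overlap, with 67NR highest and 4T07 lowest. Ndufs7 was 1.60-fold lower in 4T07 (-0.68 ± 0.13, limma adjusted p = 0.000994) and 1.29-fold lower in 4T1 (-0.36, adjusted p = 0.0327, lost without 67NR replicate 2 or 3 or any 4T1 array), and 4T1 and 4T07 differed by 0.32 (adjusted p = 0.083). Ndufs8 was 1.31-fold lower in 4T07 than in 67NR (-0.39, adjusted p = 0.0232) and 1.36-fold higher in 4T1 than in 4T07 (0.44, adjusted p = 0.0193), with 0.05 between 4T1 and 67NR. Both calls were lost without 4T07 replicate 2, the former also without 67NR replicate 3 and the latter without 4T1 replicate 1. Ndufs3, another core subunit of this module, was called in no comparison, with differences of 0.14 or less in size.

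Ndufab1 is the mitochondrial acyl carrier protein, which complex I holds at 2 sites and which also serves fatty acid synthesis and the assembly of iron-sulfur clusters in mitochondria. It was at 12.70, 12.84 and 12.97 in 67NR, 12.81, 12.69 and 12.56 in 4T07, and 12.08, 12.01 and 11.99 in 4T1. The 67NR and 4T07 arrays overlapped, and all 3 4T1 arrays lay below both. It was 1.75-fold lower in 4T1 than in 67NR (-0.81 ± 0.13, limma adjusted p = 0.000327), with all 3 probes called lower, and 1.58-fold lower than in 4T07 (-0.66, adjusted p = 0.00301). For 4T07 against 67NR, the brightest probe gave -0.15 (adjusted p = 0.385), and the other probes gave -0.32 and -0.52, the latter called.

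Ndufc1 and Ndufc2, accessory subunits of the same region of the membrane arm, moved in opposite directions in 4T1. Ndufc1 was at 12.83, 12.78 and 12.92 in 67NR, 12.52, 12.73 and 12.30 in 4T07, and 12.02, 12.02 and 11.86 in 4T1. No line overlapped with another, with 4T1 lowest. It was 1.84-fold lower in 4T1 than in 67NR (-0.88 ± 0.14, limma adjusted p = 0.000306) on each of its 2 probes, and 1.47-fold lower than in 4T07 (-0.55, adjusted p = 0.0123), a call that was lost without 4T07 replicate 2. Ndufc2 was at 10.33, 10.62 and 11.15 in 67NR, 12.02, 11.88 and 12.11 in 4T07, and 11.49, 11.21 and 11.79 in 4T1. Here 67NR was lowest and 4T07 highest, again without overlap. Ndufc2 was 2.46-fold higher in 4T07 than in 67NR (1.30 ± 0.21, adjusted p = 0.000388) and 1.73-fold higher in 4T1 (0.79, adjusted p = 0.00883), the latter lost with the methods' t-test.

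Other subunits of the membrane arm differed in 1 line. Ndufb3 was at 10.66, 10.84 and 10.86 in 67NR, 10.01, 10.07 and 9.97 in 4T07, and 10.38, 10.59 and 10.66 in 4T1, so that the 4T07 arrays lay below all others. It was 1.71-fold lower in 4T07 than in 67NR (-0.78, adjusted p = 0.000479) and 1.44-fold higher in 4T1 than in 4T07 (0.53, adjusted p = 0.0106). Ndufb10, at 7.21, 7.42 and 7.77 in 4T07 against 7.86, 8.24 and 8.48 in 67NR and 7.97, 8.13 and 8.25 in 4T1, had the same order. It was 1.66-fold lower in 4T07 than in 67NR (adjusted p = 0.00834), and 1.57-fold higher in 4T1 than in 4T07 (adjusted p = 0.0237), the latter lost without 4T07 replicate 1 or 2 or 4T1 replicate 2 or 3. The log2 differences of -0.73 and 0.65 were -0.46 and 0.41 with the authors' deposited log2 values. Ndufa3 went the other way in 4T07, with 12.22, 12.20 and 12.12 there, 11.64, 11.52 and 11.85 in 67NR, and 11.48, 11.52 and 11.38 in 4T1. It was 1.43-fold higher in 4T07 than in 67NR (adjusted p = 0.00725) and 1.65-fold lower in 4T1 than in 4T07 (adjusted p = 0.00166). Ndufa11, an accessory subunit that spans the membrane, was 1.55-fold lower in 4T07 (-0.63, adjusted p = 0.00506). In 4T1 it was 1.32-fold lower (-0.40, adjusted p = 0.0442), a call that was lost without any array of 67NR or 4T1 and without 4T07 replicate 1.

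Several complex I subunits had their highest mean in 4T1, Ndufb11, Ndufa13 and Ndufb9 among them. Ndufb11, which is encoded on the X chromosome, was dim, at 4.99, 5.63 and 5.81 in 67NR, where 2 of 3 arrays detected it, 5.84, 5.65 and 5.97 in 4T07, and 6.60, 6.42 and 5.89 in 4T1. It was 1.77-fold higher in 4T1 than in 67NR (0.83, adjusted p = 0.012), a call that was lost without 4T1 replicate 1, and the difference was 0.34 with no background correction. Ndufa13, also known for its role in cell death as Grim19, was 1.28-fold higher in 4T1 than in 67NR (0.36, adjusted p = 0.0413), a call that was lost without 67NR replicate 1 or 2, 4T07 replicate 1 or 2, or 4T1 replicate 1 or 2. Ndufb9 was at 6.90, 8.16 and 7.90 in 67NR, 7.05, 7.07 and 8.11 in 4T07, and 8.77, 8.61 and 8.10 in 4T1. The 4T1 and 4T07 arrays overlapped, because 4T07 replicate 3 lay with 4T1. Ndufb9 was called 2.11-fold higher in 4T1 than in 4T07 (1.08 ± 0.35, adjusted p = 0.039), but not without 4T07 replicate 1 or 2 or 4T1 replicate 1 or 2. With the authors' deposited log2 values the difference was 0.70. The counts of complex I moved with single arrays as well: the 8 members lower in 4T1 than in 67NR became 5 without 67NR replicate 2 or 3 or 4T1 replicate 1 or 3, the 4 higher ones became 2 without 4T1 replicate 1, and the 5 members higher in 4T1 than in 4T07 became 1 to 3 without 4T07 replicate 1 or 2 or any 4T1 array.

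**Figure D3:**
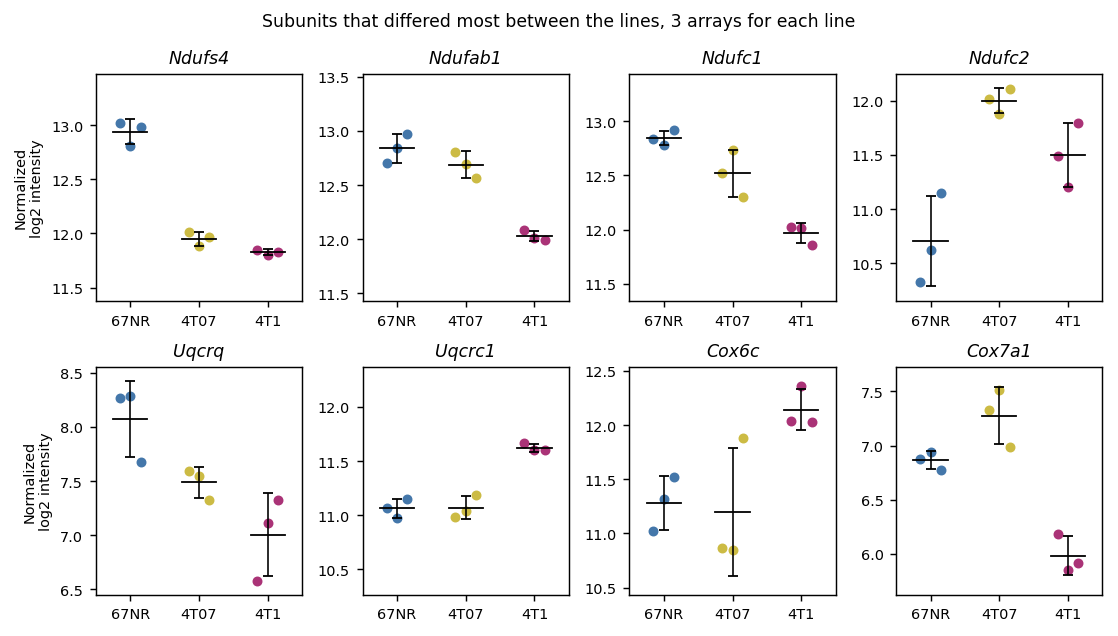
Normalized log2 intensity of 8 subunits of complexes I, III and IV that were called in at least 1 comparison, for the 3 arrays of each line (points), with the mean and 1 SD (black); every panel spans at least 2.1 log2 units and has its own axis. Ndufs4 was high in 67NR alone, Ndufab1, Ndufc1 and Cox7a1 were low in 4T1, and Uqcrc1 was high in 4T1.

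Complex II, succinate dehydrogenase, also works in the tricarboxylic acid cycle and has no subunit encoded in mitochondrial DNA. Sdha, its flavoprotein, was not among the named probes analysed here. Sdhb, the iron-sulfur subunit, was at 10.47, 10.31 and 10.61 in 67NR, 9.88, 9.93 and 10.23 in 4T07, and 9.85, 10.22 and 10.10 in 4T1. The 67NR arrays lay above the rest by a small margin, and Sdhb was 1.36-fold lower in 4T07 (-0.45, adjusted p = 0.0349) and 1.32-fold lower in 4T1 (-0.40, adjusted p = 0.0485). Both calls were lost without 67NR replicate 1 or 3 or 4T07 replicate 1 or 2, and the 4T1 call also without 4T1 replicate 1 or 3. Sdhc, a membrane anchor of the complex, was at 11.65, 11.62 and 11.88 in 67NR, 10.98, 11.01 and 11.06 in 4T07, and 11.38, 11.34 and 11.70 in 4T1. The 4T07 arrays lay below all others, and Sdhc was 1.62-fold lower in 4T07 than in 67NR (-0.70 ± 0.14, limma adjusted p = 0.00183). It was 1.37-fold higher in 4T1 than in 4T07 (0.45, adjusted p = 0.0331), although not without 4T07 replicate 1 or 2 or 4T1 replicate 1 or 3. Sdhd, the other anchor, was dim and called in no comparison, at 6.23, 6.56 and 6.69 in 67NR, 5.82, 5.67 and 6.84 in 4T07, and 6.19, 6.13 and 5.94 in 4T1.

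In complex III, the subunits split by direction. The core proteins Uqcrc1 and Uqcrc2 form a pair in the matrix arm of the complex. Uqcrc1 was at 11.06, 10.97 and 11.15 in 67NR, 10.99, 11.03 and 11.19 in 4T07, and 11.67, 11.60 and 11.61 in 4T1. The 67NR and 4T07 arrays overlapped, and the 4T1 arrays lay above both. Uqcrc1 was 1.48-fold higher in 4T1 than in 67NR (0.56 ± 0.12, limma adjusted p = 0.00268) and 1.47-fold higher than in 4T07 (0.55, adjusted p = 0.00579). Its partner Uqcrc2 was at 13.22, 12.92 and 12.63 in 67NR, 12.69, 12.47 and 12.55 in 4T07, and 12.41, 12.42 and 12.20 in 4T1. Uqcrc2 was thus 1.49-fold lower in 4T1 than in 67NR (-0.58, adjusted p = 0.0116), without overlap, and 4T07 lay in between at -0.35 (adjusted p = 0.101). The 4T1 call was lost with the methods' t-test.

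Of the 4 small subunits of complex III, Uqcrq was called lower in both lines, Uqcr10 in 4T1, Uqcr11 in 4T07 and Uqcrh in neither. Uqcrq, which lies next to cytochrome b, was at 8.26, 8.28 and 7.67 in 67NR, 7.60, 7.55 and 7.33 in 4T07, and 6.58, 7.11 and 7.32 in 4T1. No line overlapped with another, although 67NR replicate 3 came within 0.1 of 4T07 replicate 1. Uqcrq was 2.10-fold lower in 4T1 (-1.07 ± 0.22, adjusted p = 0.00159) and 1.50-fold lower in 4T07 (-0.58, adjusted p = 0.0461), the latter lost under 10 of 19 alternatives, among them the omission of 67NR replicate 1 or 2, any 4T07 array, or 4T1 replicate 2. The 4T1 call was lost with the methods' t-test. With the authors' deposited log2 values the differences were -0.64 and -0.37. Uqcr10 was 1.47-fold lower in 4T1 (-0.56, adjusted p = 0.00882), and its other probe gave -0.67. Uqcr11 was at 12.78, 13.12 and 13.46 in 67NR and 12.31, 12.36 and 12.69 in 4T07, a 1.59-fold decrease (-0.67, adjusted p = 0.0107) that was lost with the methods' t-test. In the other line, Uqcr10 stood at -0.38 (4T07, adjusted p = 0.0586) and Uqcr11 at -0.41 (4T1, adjusted p = 0.0839). Uqcrh, the hinge protein that contacts cytochrome c1, had differences of 0.14 or less in size in all 3 comparisons. The 2 members lower in 4T07 became 1 without 67NR replicate 1 or 2, 4T07 replicate 2 or 3, or 4T1 replicate 2.

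Complex IV had members called in the comparisons with 4T1. Several of its subunits exist as pairs of isoforms, 1 expressed broadly and 1 mainly in muscle or other tissues. Cox7a1, the isoform known from heart and skeletal muscle, was detected on all 9 arrays, at 6.88, 6.95 and 6.78 in 67NR, 7.33, 7.51 and 6.99 in 4T07, and 6.19, 5.85 and 5.91 in 4T1. The lines did not overlap, with 4T07 highest and 4T1 lowest. Cox7a1 was 1.84-fold lower in 4T1 than in 67NR (-0.88 ± 0.16, limma adjusted p = 0.000746) and 2.45-fold lower than in 4T07 (-1.29 ± 0.16, adjusted p = 0.000116), while 4T07 against 67NR stood at 0.41 (adjusted p = 0.0571). With no background correction the 4T1 differences were -0.44 and -0.69, and both were still called. Its broad counterpart Cox7a2 was called in no comparison, with 0.16, -0.33 and 0.48.

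The other tissue-restricted isoforms were detected on few arrays or none. Cox4i2, known from lung, and Cox6b2, known from testis, were detected on no array. Cox6a2, the muscle isoform, was detected on 67NR replicate 1 and replicate 2 only, with normalized log2 values of 8.58 and 5.17, and lay between 4.57 and 4.80 on the other 7 arrays. The deposited intensity was 527.2 on 67NR replicate 1 and 119.2 and 101.7 on the other 67NR arrays. Among the 19281 named probes, Cox6a2 was the 1 that stood over 3 log2 units above both other 67NR arrays on replicate 1. Of 10 skeletal muscle markers, Acta1, Actn3, Myl1, Pvalb, Tnnc2 and Atp2a1 were detected on no array of any line. Tnni2, a fast troponin I, was detected on all 9 arrays, at 6.73, 7.31 and 6.77 in 67NR and 9.48, 10.16 and 9.61 in 4T1. Mb, myoglobin, was at 5.72, 5.14 and 5.03 in 67NR, highest on replicate 1, and was detected on 1 of these arrays. It was also detected on 2 of the 4T1 arrays, where Cox6a2 was not detected. Tnnt3 was detected on 1 and Mylpf on 2 of the 67NR arrays. The source of the Cox6a2 signal on 67NR replicate 1 was not tested. Within 67NR, Tnnt3 was highest on replicate 3, and Mylpf and Tnni2 were lowest on replicate 1. The summed intensity of the 10 markers was 367 to 421 in 67NR, 383 to 425 in 4T07 and 1003 to 1407 in 4T1, and its part in the results was not tested. The broad counterparts were taken as a list of 7 tested genes that also held Cox7a2l, the assembly factor named above. Of these, 0 were higher and 1 lower in 4T1 than in 67NR (all genes: 23.2% and 26.6%), with a median of 0.16. In 4T1 against 4T07, 2 were higher, Cox7a2l among them, and 1 lower (all genes: 14% and 15.8%). In 4T07 against 67NR (all genes: 21.9% and 23.4%), limma called 0 of the list, also at an unadjusted p under 0.05. The methods' t-test called 1 as lower.

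Among the genes of that list, Cox4i1, the regulatory subunit that binds ATP, was at 13.18, 13.01 and 13.18 in 67NR, 12.90, 12.90 and 12.86 in 4T07, and 13.33, 13.36 and 13.30 in 4T1. The lines did not overlap, and Cox4i1 was 1.36-fold higher in 4T1 than in 4T07 (0.44, adjusted p = 0.016), a call that was lost without 4T1 replicate 2, with 0.20 against 67NR. Cox6b1, which faces the intermembrane space, was lower in 4T1, at 12.95, 12.78 and 12.99 there against 13.44, 13.38 and 13.50 in 67NR (-0.53, adjusted p = 0.00604) and 13.36, 13.44 and 13.14 in 4T07 (-0.41, adjusted p = 0.0394). The call against 4T07 was lost without any 4T1 array, 4T07 replicate 1 or 2, or 67NR replicate 2. Cox6a1, Cox7b and Ndufa4 were called in no comparison. Cox7a2l was at 12.12, 12.35 and 12.05 in 4T1 against 11.48, 11.61 and 11.70 in 4T07, and was 1.49-fold higher there (0.58, adjusted p = 0.0094).

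Cox6c, a small subunit with no tissue isoform, was at 11.02, 11.31 and 11.52 in 67NR, 10.87, 10.85 and 11.88 in 4T07, and 12.04, 12.36 and 12.03 in 4T1. All 4T1 arrays lay above all others, and 4T07 replicate 3 lay 1 log2 unit above the other 4T07 arrays. Cox6c was 1.81-fold higher in 4T1 than in 67NR (0.86 ± 0.26, adjusted p = 0.016) and 1.92-fold higher than in 4T07 (0.94 ± 0.26, adjusted p = 0.0172). The call against 67NR was lost without 67NR replicate 1 or 4T1 replicate 2, and that against 4T07 without 4T07 replicate 1 or 2 or 4T1 replicate 2. Without 4T1 replicate 2, the 3 complex IV members higher in 4T1 than in 4T07 became 1, and the 2 lower ones became 1 without any array of 4T1, 4T07 replicate 1 or 2, or 67NR replicate 2.

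Complex V consists of a catalytic head, a rotor and a stator. In the head, the catalytic subunit Atp5b was called in no comparison, at 15.11, 14.91 and 15.24 in 67NR, 14.79, 14.90 and 14.74 in 4T07, and 14.82, 14.81 and 14.89 in 4T1. Of the rotor, Atp5d and Atp5g2 were lower outside 67NR, whereas Atp5c1 and Atp5e were called in no comparison. Atp5d, a part of the central stalk, was at 11.81, 11.82 and 11.98 in 67NR, 10.91, 11.13 and 10.95 in 4T07, and 11.27, 11.59 and 11.26 in 4T1. The 3 lines did not overlap, and Atp5d was 1.83-fold lower in 4T07 (-0.87 ± 0.14, limma adjusted p = 0.00035) and 1.41-fold lower in 4T1 (-0.50, adjusted p = 0.0119), the latter lost with median centring. Atp5g2, 1 of the genes for the membrane ring of c subunits, was 1.50-fold lower in 4T07 (-0.58, adjusted p = 0.00386) and 1.36-fold lower in 4T1 (-0.44, adjusted p = 0.0163, lost without 67NR replicate 2 or 4T1 replicate 2). Atp5g3, another gene for the same subunit, was not called, at -0.04 and -0.18.

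Stator and membrane subunits of complex V differed in single lines. Atp5l, subunit g, was at 14.00, 14.04 and 14.06 in 67NR, 13.92, 13.93 and 13.76 in 4T07, and 13.25, 13.45 and 13.65 in 4T1. It was 1.50-fold lower in 4T1 than in 67NR (-0.58, adjusted p = 0.00396), with its other probe at -0.63, and 1.34-fold lower than in 4T07 (-0.42, adjusted p = 0.0381). The latter was lost without 67NR replicate 2, 4T07 replicate 1 or 2, or 4T1 replicate 1 or 2. Atp5j, a coupling factor of the peripheral stalk, was at 13.13, 13.05 and 13.01 in 4T07 against 12.36, 12.47 and 12.63 in 67NR, 1.49-fold higher (0.58, adjusted p = 0.00333), and its other probe gave 0.89. Atp5mpl, a small protein bound to the membrane part, was 1.35-fold higher in 4T1 than in 4T07 (0.43, adjusted p = 0.0421). This call was lost under 9 of 19 alternatives, among them the omission of 67NR replicate 2, any 4T07 array, or 4T1 replicate 1 or 3. The other members of complex V were called in no comparison.

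Since a probe can miss a transcript variant, probes of the same gene were compared where there were several. Of 21 members with more than 1 kept probe, 8 were called in 4T1 against 67NR, 5 in 4T07 against 67NR and 6 in 4T1 against 4T07. All probes of these genes pointed the same way in each comparison, and every probe was itself called for 6, 4 and 1 of them. Some genes that were not called had probes in conflict. In 4T1 against 67NR, the probes of Atp5o, a peripheral stalk subunit, gave 0.25 and -0.90, those of Ndufb8, a membrane arm subunit, gave 0.35 and -0.66, and those of Ndufb6 gave -0.21 and 0.50. In each pair the dimmer probe passed the test, so that the direction of these 3 genes is not settled.

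**Figure D4:**
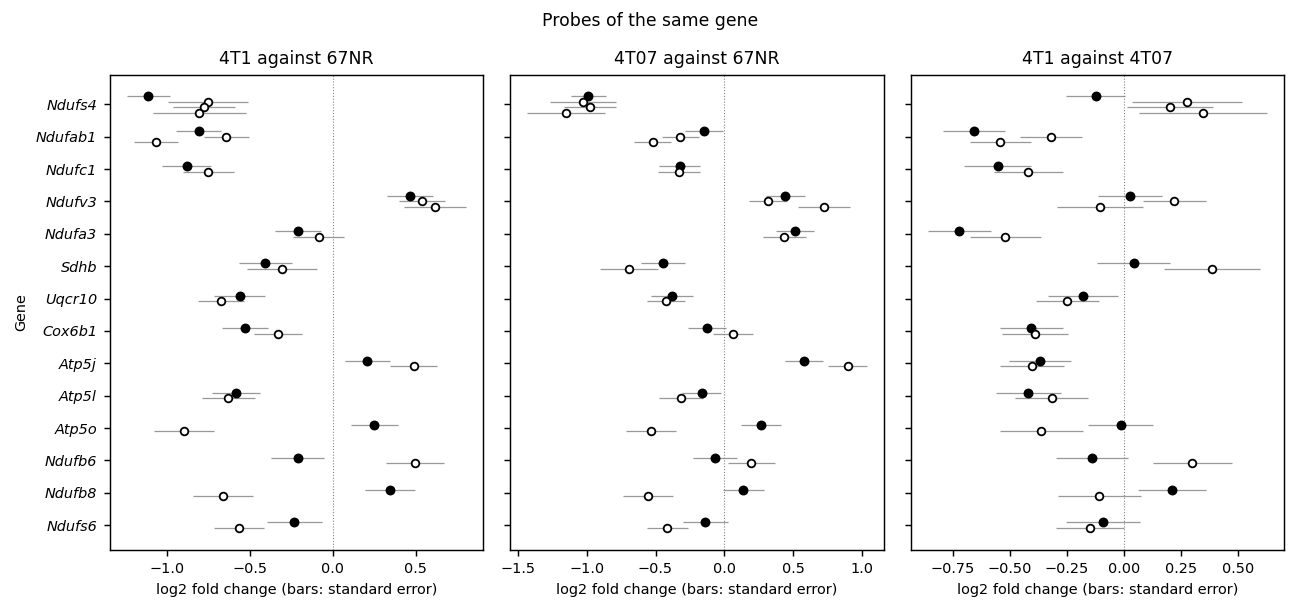
log2 fold change of single probes (points, with bars of 1 standard error) for 14 members with 2 or more kept probes, in the 3 comparisons; filled points are the brightest probe, which stands for the gene, and open points its other probes. The 4 probes of Ndufs4 lie together in both comparisons with 67NR, while those of Atp5o and Ndufb8 lie on opposite sides of 0.

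The subunits encoded in mitochondrial DNA, which the symbols of the rule do not cover, were measured for 7 genes. Over all genes, 23.2% were higher and 26.6% lower in 4T1 than in 67NR, and 21.9% and 23.4% in 4T07. The shares in 4T1 against 4T07 were 14% and 15.8%. In 4T1 against 67NR, 0 of 7 were called either way in limma, and their median was 0.00; at an unadjusted p under 0.05, 1 was lower and 0 higher, and the methods' t-test called 0 lower and 0 higher. In 4T07 against 67NR, 0 were higher and 6 lower, with a median of -0.68. In 4T1 against 4T07, 4 were higher and 0 lower, with a median of 0.62. ND1, a membrane arm core subunit of complex I, was at 12.41, 12.44 and 13.10 in 67NR, 11.80, 11.76 and 12.09 in 4T07, and 12.59, 13.00 and 12.77 in 4T1. The 4T07 arrays lay below all others, with -0.76 against 67NR (adjusted p = 0.00849) and a rise of 0.90 from 4T07 to 4T1 (adjusted p = 0.00579). ND4L, at 7.12, 7.55 and 7.85 in 67NR and 6.48, 6.45 and 5.82 in 4T07, fell by 1.26 (adjusted p = 0.0116), a difference of -0.72 with no background correction. COX2, a catalytic subunit of complex IV, was at 11.21, 11.38 and 11.44 in 67NR, 10.27, 10.17 and 11.29 in 4T07, and 11.55, 11.85 and 11.19 in 4T1, where 4T07 replicate 3 overlapped with the other lines (-0.77 in 4T07, adjusted p = 0.0373). CYTB, the cytochrome b of complex III, was the 1 gene of the 7 that was called in no comparison and was at -0.14 in 4T07. The counts rested on few arrays: the 6 lower in 4T07 became 2 without 67NR replicate 3 and 3 without 67NR replicate 2, 4T07 replicate 1 or 4T07 replicate 2, and 1 by the methods' t-test. The 4 higher in 4T1 than in 4T07 became 1 without 4T07 replicate 1 or 2 or 4T1 replicate 2, and 2 without 4T1 replicate 1.

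**Figure D5:**
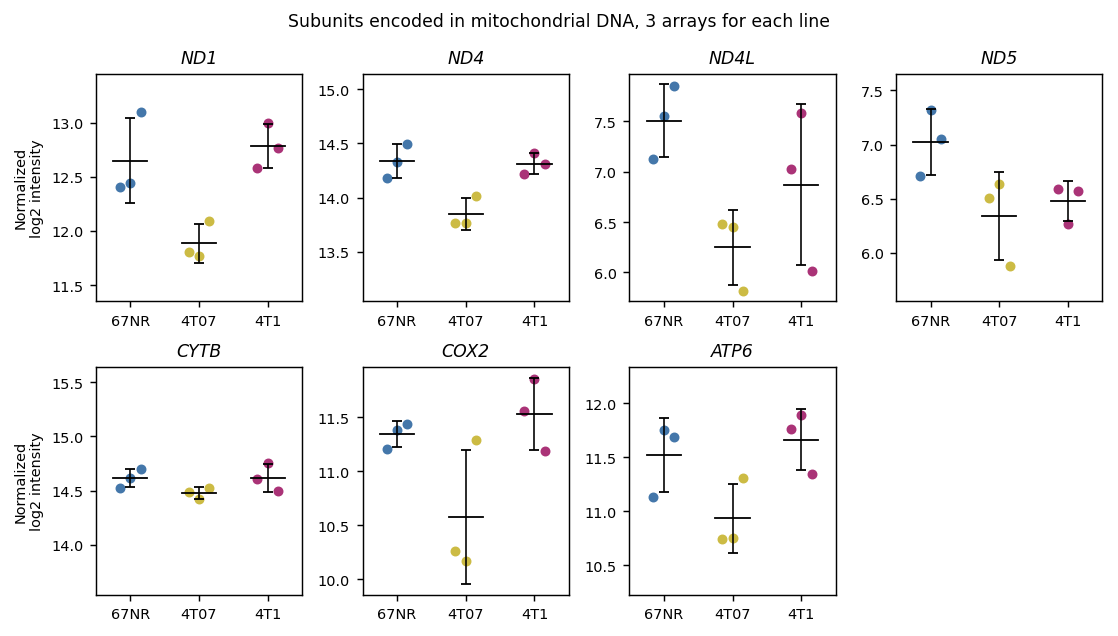
Normalized log2 intensity of 7 subunits encoded in mitochondrial DNA, for the 3 arrays of each line (points), with the mean and 1 SD (black); every panel spans at least 2.1 log2 units and has its own axis. In ND1 and ND4 the 4T07 arrays lay below all 67NR and 4T1 arrays, whereas in COX2 and ATP6 4T07 replicate 3 lay among the arrays of the other lines.

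Assembly factors, which are not part of the finished complexes, were followed as lists. Over all genes, 23.2% were higher and 26.6% lower in 4T1 than in 67NR, and 21.9% and 23.4% in 4T07. In 4T1 against 4T07 these shares were 14% and 15.8%. The counts of this list and of those below stand beside the same shares. Of 13 complex I assembly factors, 0 were higher and 7 lower in 4T1 than in 67NR (median -0.51), 1 and 5 in 4T07 (median -0.37), and 2 and 3 in 4T1 against 4T07. With median centring, the 7 became 1. Ndufaf4, which acts early in the assembly of complex I, was at 11.00, 10.75 and 10.71 in 67NR, 9.93, 9.96 and 10.16 in 4T07, and 9.52, 9.43 and 9.72 in 4T1. The lines did not overlap, and Ndufaf4 had log2 fold changes of -1.26 in 4T1 (adjusted p = 1.81e-05) and -0.81 in 4T07 (adjusted p = 0.000682). The 1 factor that was higher in 4T07, Ndufaf5, was at 0.36 there and at -0.51 in 4T1, and its rise was lost without any 67NR or 4T07 array.

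Sdhaf4, an assembly factor of complex II that binds Sdha, differed more than any other assembly factor or subunit tested. It was not detected on any 67NR array, with values of 4.84, 4.87 and 4.55, and was at 10.49, 10.56 and 10.50 in 4T07 and 10.40, 10.61 and 10.65 in 4T1. Against the lowest signal of detected probes, Sdhaf4 was at least 41.6-fold higher in 4T07 (limma adjusted p = 4.33e-11) and at least 42.6-fold higher in 4T1 (adjusted p = 4.39e-11), and was called under all 19 alternatives. It has 1 kept probe, so that no other probe of the gene bears on it. Of the 4 complex II assembly factors, 2 were higher and 1 lower in 4T1 than in 67NR, and 1 and 2 in 4T07. The other riser in 4T1, Sdhaf2, which adds the flavin to Sdha, was at 0.52, and the count became 1 without 67NR replicate 1, 4T1 replicate 1 or 4T1 replicate 2. Sdhaf3 was the 1 lower in 4T1 (-0.43), and this was lost without 67NR replicate 3 or 4T1 replicate 2.

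The factors of complexes III to V gave mixed values against 67NR. Ttc19, needed for the turnover of the Rieske protein in complex III, was at 9.71, 9.70 and 9.39 in 67NR, 8.49, 8.40 and 8.41 in 4T07, and 8.28, 8.31 and 8.45 in 4T1. It was lower in both lines without overlap (-1.25, adjusted p = 1.22e-05, and -1.16, adjusted p = 2.44e-05). Cyc1, the cytochrome c1 of complex III that the rule does not match, was also lower, with -0.83 in 4T1 (adjusted p = 0.000367) and -0.63 in 4T07 (adjusted p = 0.00269). Of the 5 genes of that list, 0 were higher and 3 lower in 4T1 (median -0.60), and 1 and 3 in 4T07 (median -0.63). Of 18 complex IV assembly factors, 1 was higher and 7 lower in 4T1, with a median of 0.04 (-0.07 without 67NR replicate 1 and -0.02 without 4T1 replicate 1), and 1 and 6 in 4T07, with a median of -0.26. The 7 became 4 without 67NR replicate 1 or 3, 3 without 4T1 replicate 2, and 2 with median centring. The 1 that was higher in each line was Cmc1, a factor in the maturation of COX1, with 1.32 in 4T1 (adjusted p = 4.96e-06) and 0.96 in 4T07 (adjusted p = 7.67e-05). Of 3 genes for the assembly and inhibition of complex V, Atpaf2, a chaperone of the catalytic head, was lower in 4T1 (-0.69) and in 4T07 (-0.56), the latter lost without 67NR replicate 2 or 4T07 replicate 2.

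Among the mobile electron carriers, 0 of 4 were higher and 2 lower in 4T1 (all genes: 23.2% and 26.6%), and 0 and 1 in 4T07 (all genes: 21.9% and 23.4%). Cycs, cytochrome c itself, was at 11.59, 11.54 and 11.69 in 67NR, 10.98, 11.10 and 10.93 in 4T07, and 10.84, 10.95 and 10.64 in 4T1. The 67NR arrays lay above all others, with -0.80 in 4T1 (adjusted p = 0.000368) and -0.60 in 4T07 (adjusted p = 0.00282), the former at -0.46 with the mean of all kept probes and the latter lost there, at -0.17. The other gene lower in 4T1 was Etfb, a subunit of the electron transfer flavoprotein, at -0.46, which was lost without 67NR replicate 2 or 3 or 4T1 replicate 2.

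Of 13 regulators of mitochondrial biogenesis, 2 were higher and 4 lower in 4T1 than in 67NR (all genes: 23.2% and 26.6%), and 0 and 5 in 4T07 (all genes: 21.9% and 23.4%). The 2 became 1 without 4T1 replicate 3, and the 5 became 3 without 4T07 replicate 1 or 2. Ppargc1b, a coactivator of mitochondrial genes, was at 8.42, 7.96 and 8.18 in 67NR, 7.03, 6.77 and 6.79 in 4T07, and 5.67, 6.08 and 5.60 in 4T1. The 3 lines did not overlap, with -2.40 in 4T1 (limma adjusted p = 3.58e-07), -1.32 in 4T07 (adjusted p = 6.69e-05) and -1.08 between 4T1 and 4T07 (adjusted p = 0.000735). With the authors' deposited log2 values these were -1.25, -0.79 and -0.46, and all 3 were called under each of the 19 alternatives. Of the factors whose motifs are counted above, Nrf1 and Gabpa, an ETS family member, were not called, with differences of 0.20 or less in size. Values for the factors of the other motifs, YY1 among them, are not given here. Tfb1m, a methyltransferase of mitochondrial ribosomal RNA, averaged 7.31 ± 0.80 in 67NR, 6.28 ± 0.46 in 4T07 and 6.31 ± 0.051 in 4T1 (SD, n = 3 each), lower in 4T07 (limma adjusted p = 0.0274) and in 4T1 (limma adjusted p = 0.0293). The lowest 67NR array, at 6.38, lay below the highest 4T07 array, at 6.78. The calls were lost under 6 and 7 of 19 alternatives in 4T07 and 4T1, among them without 67NR replicate 2 or 3, and without 4T07 replicate 1 or 2 in 4T07 and any 4T1 array in 4T1. With no background correction the differences were -0.60 and -0.59.

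Of 14 genes of the tricarboxylic acid cycle and pyruvate dehydrogenase, 4 were higher and 2 lower in 4T1 than in 67NR, and 2 and 1 in 4T07, the latter 1 and 3 without 67NR replicate 1, and 2 lower without 4T07 replicate 3. The shares over all genes were 23.2% and 26.6% in 4T1, and 21.9% and 23.4% in 4T07. Cs encodes citrate synthase, whose enzyme activity is often used as a measure of mitochondrial content. Neither that activity nor the content was measured here. The RNA of Cs was at 10.84, 11.22 and 11.22 in 67NR, 9.44, 9.57 and 9.87 in 4T07, and 10.58, 10.21 and 10.17 in 4T1. It was lowest in 4T07 and highest in 67NR without overlap, with -1.47 in 4T07 (adjusted p = 2.98e-05) and -0.78 in 4T1 (adjusted p = 0.00304). Pdha1, the catalytic subunit of pyruvate dehydrogenase, had the reverse order, at 10.68, 10.70 and 10.59 in 67NR, 11.94, 11.94 and 11.91 in 4T07, and 11.24, 11.39 and 11.52 in 4T1, with 1.27 in 4T07 (adjusted p = 6.26e-06) and 0.72 in 4T1 (adjusted p = 0.000527).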

How the data were processed

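Gene expression was measured on Illumina mouse bead arrays from total RNA labelled as biotinylated cRNA. The authors deposited, for 45281 probes and 9 arrays, an intensity on a linear scale without normalization and a detection p-value against the negative controls, and a second table with their own log2 values for 22834 probes. How the authors processed the arrays is not stated in the sources used here. Background correction and quantile normalization used neqc in limma 3.58.1 (R 4.3.3) with an offset of 16 and the negative controls derived from the detection p-values. Probes were kept where 3 or more of the 9 arrays had a detection p below 0.05, each gene was represented by its brightest kept probe, and all 9 arrays were fitted together with lmFit and eBayes. Every adjusted p is limma's, after Benjamini-Hochberg over 10021 genes. The fit was tested on simulated data. Alternatives covered background, normalization, filter, choice of probe, samples in the fit, the methods' t-test, the replicate number as a block, the deposited log2 values and each array left out. The bounds for Sdhaf4 use, on each 67NR array, the lowest normalized signal of detected probes.

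The members and gene lists were chosen with earlier results of these data known. Named genes were the members past the threshold with the largest absolute log2 fold change in each comparison (up to 10), the largest of each complex, the tissue-restricted isoforms with their counterparts, the Sdh genes, and up to 3 genes of each list. Other members described by their role were chosen after their values were seen. Levels are compared within a gene and never between genes.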

Additional observations from a re-analysis of the deposited data

How the results depend on the processing

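The largest called differences of members in each comparison (up to 10) and of each complex, 33 in all, were followed under 19 alternatives each (627 values). Of these values, 577 stayed past the threshold, 50 did not and 0 changed sign, and 19 of the 33 were called throughout. Smaller called differences are not in these counts. Among them, Ndufa1 in 4T1 against 4T07 was lost under 11 of 19 alternatives. In 4T1 against 67NR, Ndufa13 was lost under 10 and Ndufv2 under 0. The losses given beside single genes above are mainly those with 1 array left out, and other settings cost further calls. For example, median centring lost Ndufa12 and Ndufs7 in 4T1 against 67NR and Cox4i1 in 4T1 against 4T07. The methods' t-test lost Ndufb10 in 4T07 against 67NR. Members higher in 4T1 than in 67NR (6) numbered 10 with no background correction and with the authors' deposited log2 values, and 3 with the methods' t-test. Those lower (17) numbered 10 with median centring, where the median of the members was -0.083. Leaving out single arrays moved this median between -0.189 (without 67NR replicate 1) and -0.063 (without 67NR replicate 3). In 4T07 against 67NR, the median was -0.18 with the mean of all kept probes and -0.087 without 67NR replicate 3. In 4T1 against 4T07, the 11 higher members numbered 6 with the methods' t-test and 4 to 10 with single arrays left out (4 without 4T07 replicate 2, 5 without 4T07 replicate 1, 6 without 4T1 replicate 1 or 2, 7 without 4T1 replicate 3), and the 7 lower members 4 to 9 (4 without 4T07 replicate 2). They numbered 3 where all kept probes of a gene had to pass, an alternative chosen after seeing the data. The median there was 0.106 with the mean of all kept probes and 0.037 to 0.124 with single arrays left out (0.037 without 4T07 replicate 1, 0.124 without 4T07 replicate 3). The cause of these shifts was not tested. The labels do not say what samples with the same replicate number share. Correlations of the deviations of such pairs lay between -0.17 and 0.15. In 4T1 against 67NR they were 0.05, 0.15 and 0.13, and pairs with different numbers lay between -0.119 and -0.002. Same-number pairs lay between -0.05 and 0.10 in 4T07 against 67NR, and between -0.17 and -0.005 in 4T1 against 4T07. A shared batch was not tested. With the replicate number as a block, 5 members were higher and 17 lower in 4T1 than in 67NR, 4 and 14 in 4T07, and 10 and 5 in 4T1 against 4T07. A slide was not given, so that it was not run as a block. Signal over background limits the dim members, such as Ndufb11 and Cox7a1.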
